A study of Mus musculus with 12 samples.

Results

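Expression of 10 genes of stratified and simple epithelia was described in HT22 cells, an immortalized mouse hippocampal neuronal line, under iron restriction with and without depletion of NCOA4. The set comprised Sprr1a, 8 keratins (Krt7, Krt8, Krt14, Krt16, Krt17, Krt18, Krt19 and Krt80) and Sfn, 10 of the 24343 uniquely named genes used. The members were selected by symbol, with the DFO response of siControl cells already known, and the lower level of Krt16 in siNCOA4+DFO than in siControl+DFO known as well. Sprr1a and Krt16 had stood out in the siControl response. Values in these comparisons, and those of Krt16 with DFO in siNCOA4 cells, are therefore given as a description with no test. The 12 libraries formed 4 groups of 3 biological replicates each: cells given control siRNA (siControl), cells given Ncoa4 siRNA (siNCOA4), and the same division in cells that also received 100 µM of the iron chelator DFO for 24 h (siControl+DFO and siNCOA4+DFO). All 4 groups went through liposome-mediated siRNA delivery, and the knockdown was transient in a single cell line. Values are FPKM, fragments counted on a gene scaled to its transcript length and to the mapped fragments of the library, as deposited.

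Keratins are intermediate filament proteins that assemble as pairs of a type I chain (here Krt14, Krt16, Krt17, Krt18 and Krt19) and a type II chain (Krt7, Krt8 and Krt80). Krt8 and Krt18 are the pair of simple epithelia, Krt14 is a basal keratinocyte keratin, and Krt16 and Krt17 are induced in wounded or stressed epidermis. Sprr1a encodes a small proline-rich precursor of the cornified envelope that is also known as a gene of injured neurons and stressed heart muscle. Sfn encodes 14-3-3 sigma, an epithelial 14-3-3 protein and a p53 target of the G2 checkpoint.

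Ncoa4 was at 6.46, 6.19 and 6.02 FPKM in siControl and at 0.770, 0.952 and 0.891 FPKM in siNCOA4. With DFO it was at 8.70, 8.31 and 7.52 FPKM in siControl cells and at 0.850, 1.29 and 1.57 FPKM in siNCOA4 cells, so the knockdown was seen in all 6 siNCOA4 libraries. Relative depth, read from the spacing of low FPKM values, spanned 1.52-fold over the 12 libraries. Of 15 neuron markers, only Tubb3 reached 0.5 FPKM in every library of any group, and Rbfox3, Map2 and Snap25 lay near 0. Of the mesenchyme markers, led by Vim and Col1a2, 10 of 10 reached 0.5 FPKM in every library. In the epithelium list of 15 genes, Epcam and Cldn7 were listed at 0 in all 12 libraries. The epithelial sum was lower with DFO, from 5.84 to 6.89 FPKM in siControl to 2.73 to 3.18 in siControl+DFO, and from 4.39 to 5.56 in siNCOA4 to 1.52 to 2.71 in siNCOA4+DFO. Most of that sum in siControl was E-cadherin, Cdh1, at a mean of 4.56 FPKM in siControl and 1.42 in siControl+DFO. Other epithelium markers moved either way, with Krt10 at means of 0.615 and 0.917 FPKM and Trp63 at 0.873 and 0 in the same 2 groups. In siControl cells the neuron sum was higher with DFO (8.04 to 8.75 FPKM without, 12.3 to 13.9 with it) and the mesenchyme sum lower (3423 to 3917 and 2094 to 2218). That neuron difference was Tubb3, with means of 7.77 and 12.5 FPKM, since all other neuron markers had means below 0.5 FPKM and moved either way. In siNCOA4 cells the neuron sum was 5.16 to 6.70 and 5.81 to 10.1 FPKM, and the mesenchyme sum 2532 to 2788 and 1921 to 2106 FPKM. The astrocyte sum, mostly Slc1a3, was 36.5 to 46.0 FPKM without and 3.31 to 5.48 with DFO in siControl cells, and 22.5 to 27.3 and 6.98 to 15.3 in siNCOA4 cells, although Gfap and Aldh1l1 had higher means with DFO. The microglia sum, mostly Tmem119, was 10.1 to 11.8 and 1.04 to 1.80 FPKM, and 3.79 to 5.78 and 0.587 to 2.01 FPKM. Aif1 and Cx3cr1 had higher means with DFO in siControl cells (0.247 and 0.243 FPKM, each against 0) and lower ones in siNCOA4 cells. The part of these markers in the results was not tested. In bulk RNA, fewer cells of a type and less RNA per cell cannot be told apart.

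The members fell into 3 levels. Sprr1a, Krt16 and Krt80 passed 10 FPKM in at least 1 library, Krt7 and Sfn reached 1 FPKM, and Krt8, Krt14, Krt17, Krt18 and Krt19 stayed below it in every library. Genes with at least 0.5 FPKM in at least 3 libraries were tested, which held for 5 of the 10 members. Krt16 and Krt7 passed this filter only through DFO libraries, in which they were high, and Sprr1a largely so. Sprr1a reached 0.5 FPKM in 1 siControl and 1 siNCOA4 library, short of the 3 needed without DFO libraries. The number of these members and the p of Krt7 and Sprr1a are therefore not support for a rise. Sfn passed through 3 libraries without DFO and was the member just inside, and Krt14, with 2 libraries at 0.5 FPKM or more, was just outside.

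Sprr1a was nearly silent without DFO. It was listed at 0, 0 and 0.871 FPKM in siControl and at 0.388, 0.399 and 0.726 FPKM in siNCOA4. With DFO it stood at 45.2, 47.4 and 37.6 FPKM in siControl cells and at 16.02, 17.03 and 4.98 FPKM in siNCOA4 cells. Every DFO library lay above every untreated library, and every siNCOA4+DFO library lay below every siControl+DFO library. The mean of siControl+DFO, 43.4 ± 5.16 FPKM (SD, n = 3), placed Sprr1a above 92.3% of genes in that group, against 76.9% at 12.7 ± 6.69 FPKM (SD, n = 3) in siNCOA4+DFO.

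**Figure D1:**
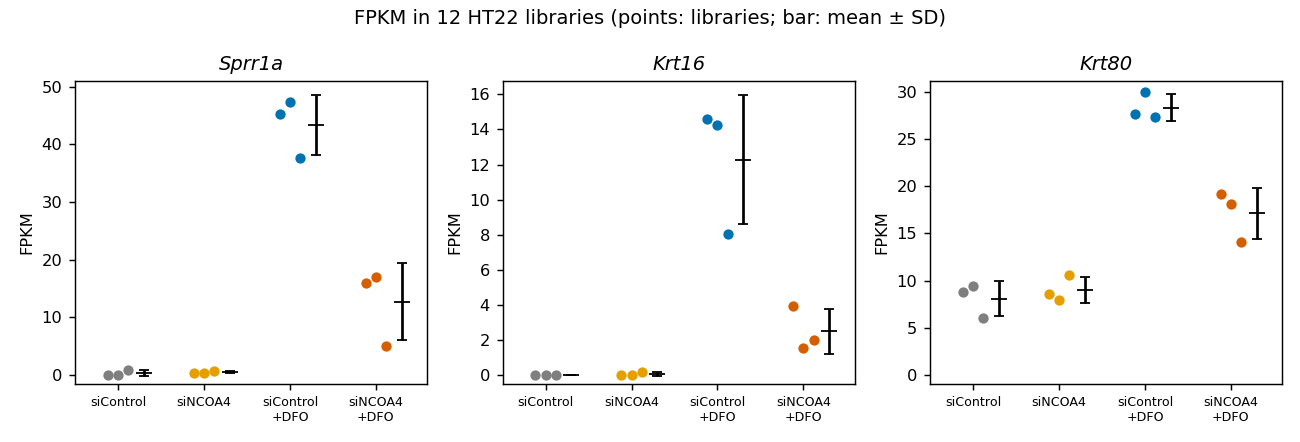
FPKM of Sprr1a, Krt16 and Krt80 in each of the 12 libraries, by group, on linear axes with a separate scale per gene. Points are libraries and bars are the mean ± SD of 3. In all 3 genes the siNCOA4+DFO libraries lie between the untreated and the siControl+DFO libraries, with Sprr1a at a mean of 12.7 against 43.4 FPKM.

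Within siNCOA4 cells, Sprr1a rose with DFO by 4.26 ± 0.74 (SE) on the log2(FPKM + 0.1) scale (limma, adjusted p = 6.02e-04). The difference itself came from the siNCOA4 and siNCOA4+DFO libraries. Its spread was estimated over all 12, those known at selection included, and the call also held with the compared groups alone. Sprr1a passed the filter only with DFO libraries counted, those of siNCOA4+DFO among them, so this p is not support for a rise. In siControl cells the rise was 43.1 FPKM, from about 2 fragments in the 3 untreated libraries to about 297 with DFO. Corrected for depth this was a ratio of 146, with a 95% exact interval of 40.1 to 1211 that covers counting error only. The rise in siNCOA4 cells was 12.2 FPKM, 28.3% of that in siControl cells, given with no test. Ncoa4 siRNA without DFO did not pass the test for Sprr1a (log2 difference 1.46, 95% interval -0.16 to 3.07, adjusted p = 0.237), a comparison that shares the siControl libraries with the one used for selection. Without siControl replicate 3, which leaves only siControl libraries listed at 0, that difference was 2.55 with an adjusted p of 0.00656.

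Sprr1a lies on chromosome 3 from 92483954 to 92485881, on the minus strand (GRCm38.p6). Promoter windows, 250 bases before to 50 after an annotated start, were matched from RefSeq on GRCm38.p6 for 6 of the 10 members: Sprr1a, Krt14, Krt7, Krt8, Krt18 and Sfn. Those of Sprr1a and Krt7 are shown because both genes rose with DFO in siNCOA4 cells and their windows differ. Capitals mark TGANTCA, the binding motif of AP-1 factors, searched on both strands.
Sprr1a, chr3:92485832-92486131, minus strand: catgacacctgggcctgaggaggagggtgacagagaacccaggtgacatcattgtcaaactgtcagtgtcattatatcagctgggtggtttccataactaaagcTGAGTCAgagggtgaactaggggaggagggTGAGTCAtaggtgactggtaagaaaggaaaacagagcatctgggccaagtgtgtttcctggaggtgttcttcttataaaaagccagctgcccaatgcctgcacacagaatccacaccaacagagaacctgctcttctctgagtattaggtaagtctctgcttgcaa
Krt7, chr15:101412153-101412452, plus strand: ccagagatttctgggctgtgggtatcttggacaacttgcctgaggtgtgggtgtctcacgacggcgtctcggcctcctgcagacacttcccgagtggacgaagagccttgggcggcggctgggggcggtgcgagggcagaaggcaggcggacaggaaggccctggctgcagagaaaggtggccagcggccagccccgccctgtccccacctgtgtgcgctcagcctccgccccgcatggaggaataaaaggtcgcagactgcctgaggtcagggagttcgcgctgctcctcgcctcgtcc
The Sprr1a window held the AP-1 motif at 2 places, from -146 to -140 and from -116 to -110 relative to the start, and TATAAA from -43 to -38. Of 32817 mouse promoter windows of the same length, 7.81% held the AP-1 motif and 0.46% held it at least 2 times. TATAAA occurred in 13.6% of windows. The Krt7 window and those of the other 4 matched members held no AP-1 motif. The core of the hypoxia response element, ACGTG or GCGTG on either strand, was found in 43.8% of all windows, in those of Krt14 and Krt18, and not in those of Sprr1a, Krt7, Krt8 or Sfn. The Krt14 window starts at an annotated start inside the gene. These matches are letters in a window, and binding was not measured.

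Krt16 was seen almost only with DFO. All 3 siControl libraries listed it at 0, and siNCOA4 had 0, 0 and 0.164 FPKM. With DFO it stood at 14.6, 14.2 and 8.03 FPKM in siControl cells and at 3.94, 1.54 and 1.99 FPKM in siNCOA4 cells. The siNCOA4+DFO libraries lay above all untreated and below all siControl+DFO libraries. In siNCOA4 cells Krt16 was higher with DFO by 4.12 ± 0.47 (SE) on the log2(FPKM + 0.1) scale. That estimate, given with no test because the siNCOA4+DFO level was known at selection, depended on the pseudocount, between 1.67 and 6.48 over the alternatives, since the untreated libraries held about 1 fragment against 35 (ratio 43.0 per depth, 95% exact interval 7.23 to 1747). No fold is given for siControl cells, where the untreated group was at 0. The rise was 12.3 FPKM in siControl cells and 2.44 FPKM in siNCOA4 cells, 19.8% as large, with no test of that difference.

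Part of the Krt16 sequence is shared with other genes, and how reads from that part were counted is not given. The gene lies on chromosome 11 from 100246091 to 100248902, minus strand, in the type I keratin cluster with Krt14 (100203162 to 100207510), Krt17 (100256215 to 100261029) and Krt19 (100140810 to 100145926), all on the minus strand. Of the 75-base windows of its annotated transcripts, 28.9% also occur in other genes, chiefly Gm11597 and Krt14. Krt14 itself stayed at or below 0.611 FPKM in every library, including those in which Krt16 was at 14.6 FPKM.

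Krt80, a type II keratin expressed across many epithelia, was the only member present at appreciable levels without DFO. It was at 8.83, 9.42 and 6.01 FPKM in siControl and at 8.59, 7.94 and 10.6 FPKM in siNCOA4. With DFO it was at 27.7, 30.0 and 27.3 FPKM in siControl cells and at 19.2, 18.1 and 14.1 FPKM in siNCOA4 cells. The groups overlapped without DFO and did not overlap otherwise. In siNCOA4 cells Krt80 was higher with DFO by 0.91 ± 0.17 (SE) on the log2 scale (limma, adjusted p = 0.00109), a fold of 1.88 that fell short of the 2-fold threshold for a call. Without siNCOA4 replicate 3 or siNCOA4+DFO replicate 3 the difference was 1.03 or 1.05 and passed it. The rise in siControl cells, described with no test, was 1.82 ± 0.17 (SE). The 2 log2 responses differed by -0.91 ± 0.24 (SE, siNCOA4 minus siControl), and as FPKM the rise in siNCOA4 cells was 40.0% of that in siControl cells. Ncoa4 siRNA alone gave a log2 difference of 0.17 (95% interval -0.20 to 0.55, adjusted p = 0.575). Krt80 lies on chromosome 15 from 101348315 to 101370162, minus strand.

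Krt7, a type II keratin of simple and glandular epithelia, lies beside it on chromosome 15 from 101412403 to 101427806, plus strand, and rose at a much lower level. It was at 0.227, 0 and 0 FPKM in siControl and at 0.174, 0 and 0.161 FPKM in siNCOA4. With DFO it was at 0.429, 1.27 and 0.772 FPKM in siControl cells and at 0.613, 0.568 and 1.72 FPKM in siNCOA4 cells. Both DFO groups lay above both untreated groups, and the DFO groups overlapped each other. In siNCOA4 cells the log2 difference was 2.31 ± 0.68 (SE; limma, adjusted p = 0.0156), resting on about 13 fragments against 2 (ratio 7.99 per depth, 95% exact interval 1.81 to 72.9). Krt7 passed the filter only through DFO libraries, those of siNCOA4+DFO among them, so this p is not support for a rise. The adjusted p was 0.0620 without siNCOA4 replicate 2 and 0.0639 without siNCOA4+DFO replicate 3, the library in which Krt7 was highest and Sprr1a lowest of its group. The rise in FPKM was 0.749 in siControl cells and 0.855 in siNCOA4 cells. The difference between the log2 responses, -0.23 with a 95% interval of -2.31 to 1.86, was too wide to order them.

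Sfn, unlike the genes above, had a lower mean with DFO than without it in siControl cells, 0.252 against 1.16 FPKM. It was at 1.78, 0.354 and 1.33 FPKM in siControl and at 0.681, 0 and 0.158 FPKM in siNCOA4. With DFO it was at 0.210, 0.358 and 0.189 FPKM in siControl cells and at 0.401, 0.372 and 0.482 FPKM in siNCOA4 cells. The siControl libraries spread widely and overlapped both siNCOA4 and siControl+DFO, while siNCOA4+DFO lay just above siControl+DFO in FPKM. That order rested on about 2 fragments in each siNCOA4+DFO library against 1, 2 and 1 in siControl+DFO, so it is not read as a difference. Neither tested comparison passed, with log2 differences of 0.92 for DFO in siNCOA4 cells (95% interval -0.64 to 2.48, adjusted p = 0.326) and -1.97 for Ncoa4 siRNA alone (-3.54 to -0.41, adjusted p = 0.10). The latter had an adjusted p of 0.0313 without siNCOA4 replicate 1. Sfn lies on chromosome 4 from 133600556 to 133602168, minus strand, and shares 7.41% of its 75-base windows with Gm7850 and Gm5279.

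The remaining 5 keratins were close to the limit of these libraries. Krt8 (chromosome 15, 101996711 to 102004342) was at 0.788, 0.470 and 0.337 FPKM in siControl, at 0.452, 0.156 and 0.280 in siNCOA4, at 0, 0 and 0.167 in siControl+DFO and at 0, 0.164 and 0.426 in siNCOA4+DFO. It was the one keratin of the set that stood lower in all siControl+DFO libraries than in all siControl libraries, on about 1 fragment against 9, and 23.5% of its 75-base windows also occur elsewhere, mostly in Krt8-ps. Its partner Krt18 (chromosome 15, 102028216 to 102032026) was listed at 0 in all libraries but siControl+DFO replicate 3, at 0.222 FPKM, and siNCOA4+DFO replicate 3, at 0.282 FPKM. Krt14 was at 0, 0.172 and 0.369 FPKM in siControl, at 0 in all of siNCOA4, at 0.611, 0.520 and 0.183 in siControl+DFO and at 0.194, 0.360 and 0 in siNCOA4+DFO. Krt17, the wound keratin usually named with Krt16, was listed at 0 in all 6 untreated libraries and reached 0.452 FPKM in siControl+DFO replicate 1 and 0.216 FPKM in siNCOA4+DFO. Krt19 was above 0 in 1 siNCOA4 library, at 0.189 FPKM, and in 1 siControl+DFO library, at 0.427 FPKM. Krt14, Krt17, Krt18 and Krt19 held 1 to 7 fragments per group where they were seen at all. They were not tested, so a difference between groups is neither claimed nor excluded.

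**Figure D2:**
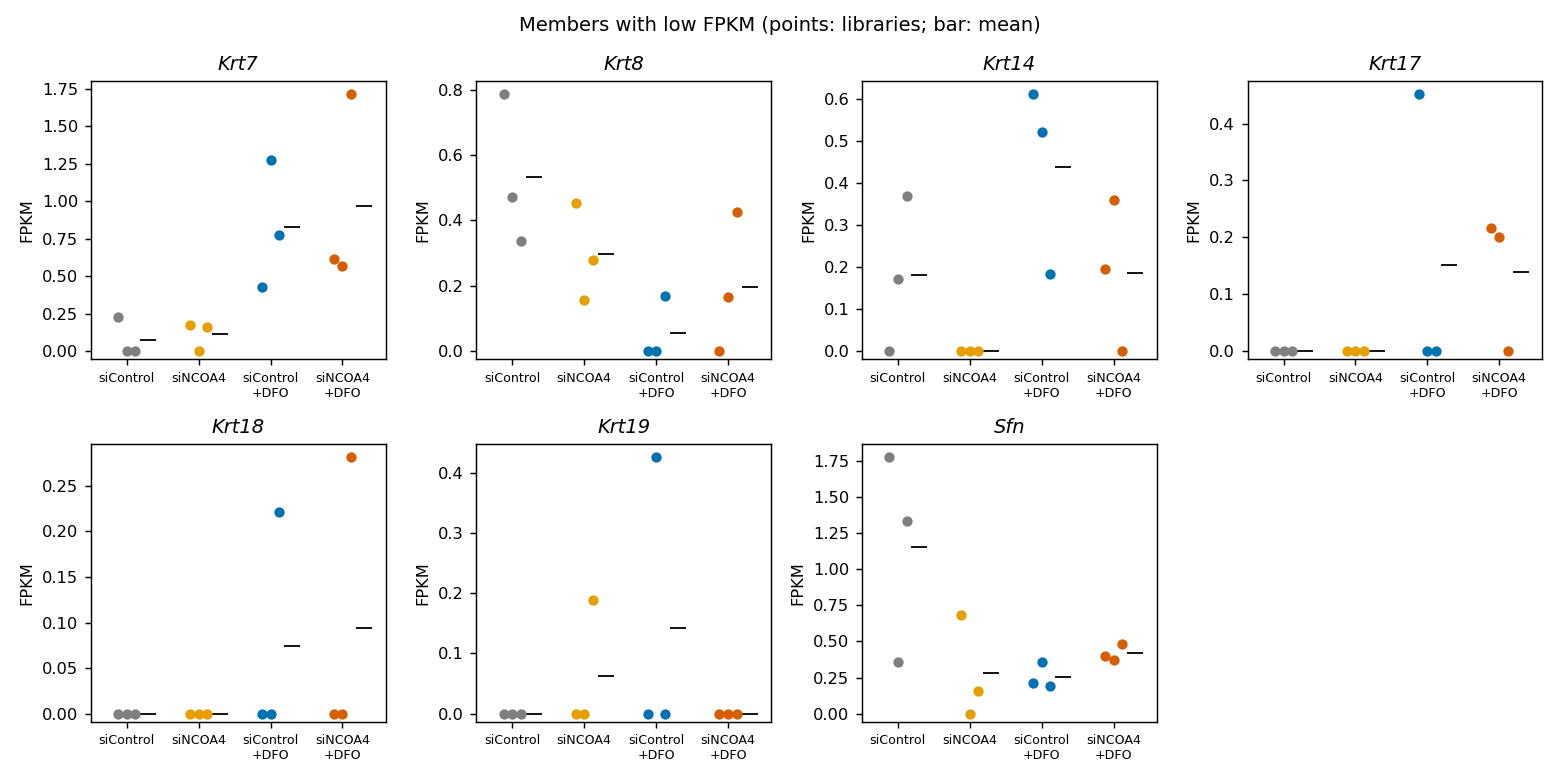
FPKM of the 7 members with low values in each of the 12 libraries, by group, on linear axes with a separate scale per gene. Points are libraries and the short bar is the group mean. Krt7 is higher in both DFO groups, up to 1.72 FPKM, Krt8 and Sfn are highest in siControl, and Krt17, Krt18 and Krt19 are at 0 in most libraries.

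In siNCOA4 cells, 3 of the 5 members in the fit, Sprr1a, Krt16 and Krt7, were called higher with DFO (fold above 2, adjusted p below 0.05), and 0 lower. Of all 11924 genes tested, 7.59% were called higher and 3.83% lower. Krt16 is no test for the reason above. Krt16 and Krt7 passed the filter only through DFO libraries and Sprr1a largely so, which favours such calls, so the count is not read against that share. At an adjusted p below 0.05 whatever the fold, 4 members were higher, with Krt80, and 23.1% of all genes, with the same limit. Ncoa4 siRNA without DFO gave 0 called members of 5 by limma, where 0.805% of all genes were called higher and 0.973% lower. At an unadjusted p below 0.05 there was 1, Sfn, beside 3129 of all 11924 genes, higher or lower. The DFO comparison in siControl cells, known at selection, called 11.1% of all genes higher and 7.76% lower. Between the DFO groups Sprr1a stood -1.95 ± 0.74, Krt16 -2.32 ± 0.47 and Krt80 -0.73 ± 0.17 (SE) in siNCOA4+DFO minus siControl+DFO on the log2 scale, given with no test. Krt7 differed by 0.15 ± 0.68 and Sfn by 0.58 ± 0.72. In that comparison 1.07% of all genes were called higher and 1.01% lower, and 2.1% of all genes were called for a DFO response that differed between siNCOA4 and siControl cells.

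Likeness between members is given as a description, since the libraries in which they were selected are among the 12 and the libraries share treatment. Over these 12 the Pearson r of log2(FPKM + 0.1) was 0.951 between Sprr1a and Krt16, 0.970 between Krt16 and Krt80, 0.895 between Sprr1a and Krt80 and 0.821 between Krt16 and Krt7. It was 0.792 between Krt7 and Krt80, 0.750 between Sprr1a and Krt7, and -0.272 between Sprr1a and Sfn. The 5 other genes most like Sprr1a were Brox (r = 0.988), Isg20, Cyp3a13, AW209491 and Mak16 (0.979). Those most like Krt16 were Rab44 (0.992), Mtbp, Rcan1, Mgea5 and Rnf19a (0.989). Isg20, an exonuclease gene, had mean FPKM of 3.25 in siControl, 6.0 in siNCOA4, 25.6 in siControl+DFO and 16.2 in siNCOA4+DFO. Rcan1, a calcineurin regulator, had 4.44, 4.79, 25.9 and 15.4 FPKM.

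The rest of the keratin family was hardly seen. Of 40 other keratin genes, 14 were listed at 0 in all 12 libraries, 23 stayed below 0.5 FPKM, and 3 reached it, Krt10, Krt13 and Krt86, named because the count was small. Krt10, the one that could be tested, had values between 0.257 and 1.28 FPKM and log2 differences with DFO of 0.55 in siControl cells and 0.25 in siNCOA4 cells, neither called. Of 6 other 14-3-3 genes tested beside Sfn, 0 were called by limma in any pairwise comparison, since none changed by 2-fold. In siNCOA4 cells 6 of the 6 differed with DFO at an adjusted p below 0.05 (6 at an unadjusted p below 0.05). These differences were at most 0.80 on the log2 scale, with 1 above 0 and a median of -0.49. Beside them, 5095 of all 11924 genes tested passed at the adjusted p and 5988 at the unadjusted p, higher or lower.

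Cornified envelope genes, the class of Sprr1a, were few in these cells. This list and the others were chosen with earlier results of these data known. Evpl here, and Dsp, Fam83h and Atf3 in lists below, reached 0.5 FPKM only in DFO libraries. Passing the filter that way favours calls higher with DFO, so no such list count is read against the share of all genes. Of 59 found among the entries, 9 could be tested. With DFO, Evpl and Sbsn were called higher and S100a16 lower in siControl cells, and Evpl alone higher in siNCOA4 cells (2 genes without siNCOA4+DFO replicate 1). All genes tested gave 11.1% higher and 7.76% lower in siControl cells and 7.59% higher in siNCOA4 cells. Counts this small are not read as a result for the class. The median log2 difference of the 9 was 0.51 and 0.22, beside -0.01 and -0.0035 for all genes tested. Evpl, which encodes the desmosomal plaque and envelope protein envoplakin, was at 0.0523, 0.0417 and 0 FPKM in siControl and at 0.0800, 0.290 and 0.185 FPKM in siNCOA4. With DFO it was at 9.36, 9.38 and 8.70 FPKM in siControl cells and at 3.48, 2.61 and 1.69 FPKM in siNCOA4 cells. These levels followed the order of Sprr1a, and the DFO response of Evpl, siNCOA4 minus siControl cells, differed by -2.91 ± 0.52 (SE) on the log2 scale (limma, interaction, adjusted p = 0.0174). Evpl was named for its large DFO difference in siControl cells, a choice that favours this direction. The adjusted p was 0.0584 without siControl+DFO replicate 1 and 0.050 without siControl+DFO replicate 2. Sbsn, encoding suprabasin, was called in siControl cells at 1.13 ± 0.36 (SE, adjusted p = 0.0185), a call lost without siControl replicate 2 or 3 or siControl+DFO replicate 3 (0.0569, 0.0778 and 0.0656), with a pseudocount of 1 (0.91, below the fold threshold) or with the compared groups alone (0.0614). S100a16, a calcium-binding protein gene, fell by 1.05 ± 0.22 (SE, adjusted p = 0.00154), and by 0.86 without siControl replicate 2, below the fold threshold.

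Among genes that anchor keratin filaments, desmosome and hemidesmosome components, 12 of 24 could be tested. With DFO 4 were called higher in siControl cells (Dsp, Itga6, Jup and Pkp2) and 3 in siNCOA4 cells (Dsp, Itga6 and Jup), and 0 lower. The shares of all genes called higher were 11.1% and 7.59%. The counts are not read against those shares, since Dsp passed the filter only through DFO libraries. The median log2 difference of the 12 was 0.67 and 0.42. Dsp, encoding desmoplakin, the linker of keratins to desmosomes, had mean FPKM of 0.0276, 0.0258, 0.711 and 0.520 in siControl, siNCOA4, siControl+DFO and siNCOA4+DFO. It rose with DFO by 2.73 ± 0.51 in siControl and 2.29 ± 0.51 (SE) in siNCOA4 cells on the log2 scale, and by 0.74 and 0.56 with a pseudocount of 1, below the fold threshold. Pkp2, a plakophilin gene, was called at 1.43 ± 0.57 (SE, adjusted p = 0.0492), and leaving out any of 9 of the 12 libraries in turn ended that call, with adjusted p up to 0.163. Jup, encoding plakoglobin of the desmosomal plaque, rose by 1.19 ± 0.14 in siControl and 1.12 ± 0.14 (SE) in siNCOA4 cells, the latter by 0.98 without siNCOA4+DFO replicate 1, below the fold threshold.

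Of 17 other intermediate filament and linker genes, 9 could be tested, and the same counts were found in both DFO comparisons, 3 higher (Des, Fam83h and Tchp) and 1 lower (Lmnb1). Beside them, 11.1% of all genes were called higher and 7.76% lower in siControl cells, and 7.59% and 3.83% in siNCOA4 cells. Fam83h passed the filter only through DFO libraries, so the counts are not read against these shares. Fam83h, whose product binds keratin filaments, rose by 3.03 ± 0.38 and 2.49 ± 0.38 (SE) with DFO in siControl and siNCOA4 cells. Tchp, encoding trichoplein, a protein that binds keratins 8 and 18, rose by 1.47 ± 0.13 and 1.16 ± 0.13 (SE), and Des, the muscle filament desmin, by 1.48 ± 0.22 and 1.42 ± 0.22 (SE). Lmna was lower in both Ncoa4 siRNA comparisons.

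**Figure D3:**
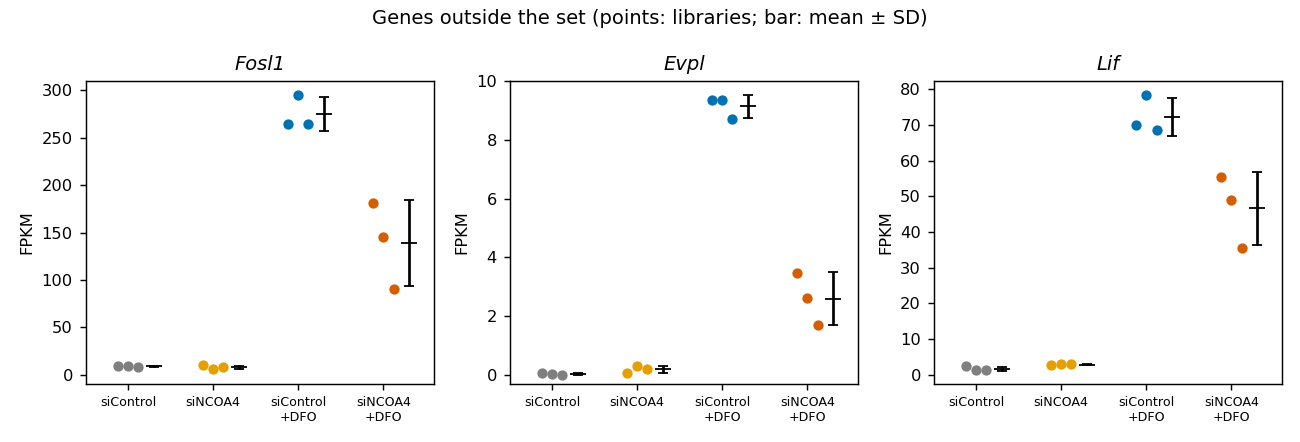
FPKM of Fosl1, Evpl and Lif, which are not in the set, in each of the 12 libraries by group, on linear axes with a separate scale per gene. Points are libraries and bars are the mean ± SD of 3. Each is highest in siControl+DFO and intermediate in siNCOA4+DFO, as with Evpl at 9.15 and 2.59 FPKM.

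Of 30 transcription factors known to act on keratin and Sprr promoters, 22 could be tested. With DFO 16 were called higher in siControl cells and 11 in siNCOA4 cells, with 1 lower in each, Trp63. The shares of all genes were 11.1% and 7.59% higher, and 7.76% and 3.83% lower. The counts with DFO are not read against those shares, since Atf3, on this list, passed the filter only through DFO libraries. The median log2 difference of the 22 was 1.66 and 1.15. Fosl1, an AP-1 subunit of the Fos family, was at 9.22, 9.51 and 8.60 FPKM in siControl, at 9.94, 6.30 and 7.89 in siNCOA4, at 265, 295 and 265 in siControl+DFO and at 181, 145 and 91.1 in siNCOA4+DFO. It rose by 4.90 ± 0.21 in siControl and 4.06 ± 0.21 (SE) in siNCOA4 cells. Fos rose by 5.65 ± 0.59 and 4.77 ± 0.59 (SE), and Fosb by 4.64 ± 0.47 and 2.89 ± 0.47 (SE). Between the DFO groups 3 of the 22 were called lower with Ncoa4 siRNA, the AP-1 genes Fosl1, Jun and Junb, named because the count was small, and 0 higher. Of all genes, 1.01% were called lower and 1.07% higher there. The count of 3 was 1 without siControl+DFO replicate 2 or siNCOA4+DFO replicate 3, 5 without siNCOA4+DFO replicate 1, and 11 at an adjusted p below 0.05 whatever the fold. At that last setting 1963 of all 11924 genes passed, higher or lower. Fosl1 differed there by -1.04 ± 0.21 (SE, adjusted p = 0.00658), and by -0.98 without siControl+DFO replicate 2 or -0.76 without siNCOA4+DFO replicate 3, below the fold threshold. For a difference between the 2 DFO responses, 1 of the 22 was called, against 2.1% of all genes. It was Nfe2l2, a call lost in 11 of 12 fits without a single library (adjusted p up to 0.101). Trp63, a basal epithelial regulator also on the epithelium list, had mean FPKM of 0.873 in siControl, 0.509 in siNCOA4, 0 in siControl+DFO and 0.119 in siNCOA4+DFO.

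Genes that accompany Sprr1a in injured nerve gave 11 testable of 25, of which 7 were called higher with DFO in siControl cells and 6 in siNCOA4 cells, and 0 lower. The shares of all genes called higher were 11.1% and 7.59%. Atf3, which is also on the list of transcription factors, was listed at 0 in all 6 untreated libraries and had mean FPKM of 2.46 in siControl+DFO and 1.03 in siNCOA4+DFO. It passed the filter only through DFO libraries, so the counts with DFO are not read against those shares. Lif, a cytokine of injured nerve, had mean FPKM of 1.71 in siControl, 2.91 in siNCOA4, 72.3 in siControl+DFO and 46.7 in siNCOA4+DFO, and rose by 5.36 ± 0.20 and 3.93 ± 0.20 (SE) in siControl and siNCOA4 cells. Il6, another such cytokine, had 0.116, 0.702, 9.93 and 3.24 FPKM in the same order. The median log2 difference of the 11 genes between the DFO groups was -0.65, siNCOA4+DFO minus siControl+DFO, with Basp1 the one gene called lower. Of all genes, 1.01% were called lower there. Without siControl replicate 1 or siNCOA4+DFO replicate 1 there were 2 such genes in the list. Basp1 was also called lower with Ncoa4 siRNA without DFO.

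**Figure D4:**
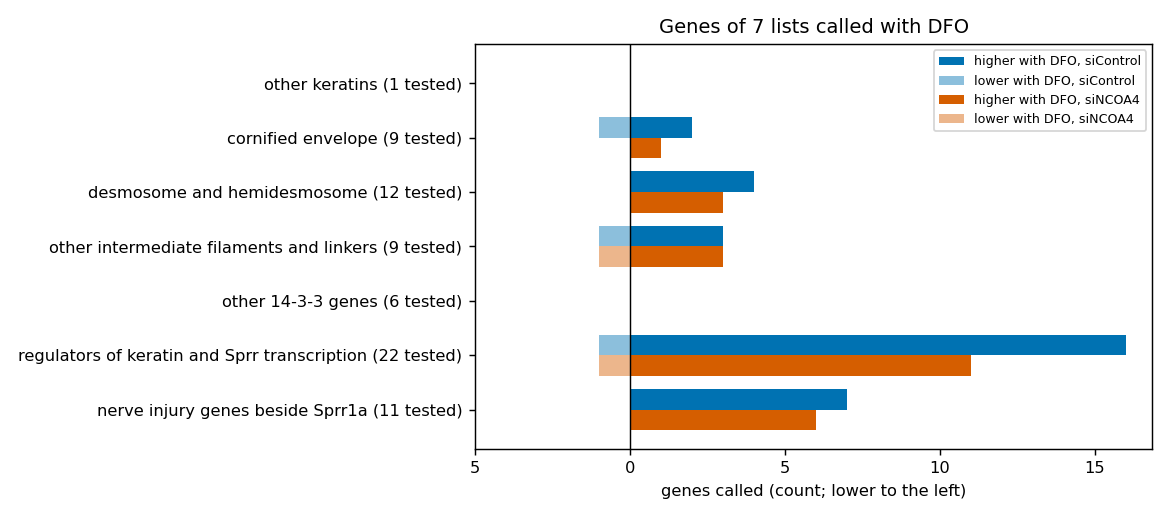
Number of genes called with DFO in each of 7 gene lists, in siControl cells (blue) and siNCOA4 cells (orange), with genes called higher to the right and lower to the left of 0. The labels give how many genes of each list could be tested. The transcription factor list has the most calls, 16 of 22 higher in siControl and 11 of 22 in siNCOA4 cells. Among all genes tested 11.1% and 7.59% were called higher. The lists were chosen with earlier results of these data known. Some list genes passed the filter only through DFO libraries, so the counts are not read against these shares.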

How the data were processed

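Total RNA of the 12 libraries was prepared with a stranded, low-input kit and sequenced in 75-bp pairs. FPKM per gene were deposited by the authors, 1 table of 24347 entries per library. The submitters' processing notes name mm10, Trimmomatic 0.33, FastQC, HISAT2 2.1.0, featureCounts and edgeR, with no roles. The tool that made the FPKM, its annotation and its strand setting are not given in the sources used here. The 4 entries that share a name with another were left out. FPKM holds no total count, but low values of a gene are whole multiples of a step (within 0.1 below 20 steps), taken here as 1 fragment. Step times exon length was 360 to 495 over 8 members (Krt7, with several isoforms, and Krt80, without clear steps, excepted). A gene listed at 0 can still have had reads, and intervals on fragments cover counting error only.

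Groups and replicate numbers came from the labels. log2(FPKM + 0.1) of the 11924 genes with at least 0.5 FPKM in at least 3 of the libraries was fitted over all 12 with limma 3.58.1 in R 4.3.3 (4 group means, moderation with a trend, Benjamini-Hochberg over all genes of a comparison). Called means a fold above 2 and an adjusted p below 0.05, and for the difference between DFO responses that p alone. The pseudocount understates changes of low genes. With 3 libraries against 3 an exact permutation p cannot go below 0.1, so none is given. The fit was tested on simulated data. Coordinates and promoters are RefSeq on GRCm38.p6 and transcripts GENCODE on GRCm38.

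The members and lists were chosen with earlier results of these data known. Genes named are all members, Ncoa4, the 3 genes of each list with the largest DFO difference in siControl cells among those called in any pairwise comparison, and the 5 genes most correlated with Sprr1a and Krt16. Exceptions are stated, and 1 listed gene is not reported here. Alternatives were pseudocounts of 1 and 0.01, no filter or 2 FPKM, median-of-ratios scaling, a replicate block, the compared groups alone, no trend, each library left out, and no fold threshold.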

Additional observations from a re-analysis of the deposited data

Results flagged for a closer look

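The response to DFO differed between siNCOA4 and siControl cells by the interaction test for 5 genes of the lists outside the set. They were 1 of 9 tested cornified envelope genes, 1 of 22 transcription factors and 3 of 11 nerve injury genes. In the other lists it was 0 of 12 desmosome, 9 filament, 6 14-3-3 and 1 keratin genes. Of all 11924 genes tested, 250 (2.1%) were called, and the count of 5 is not read as a result for the lists. On the log2(FPKM + 0.1) scale, siNCOA4 minus siControl, the difference was -2.91 for Evpl (limma, adjusted p = 0.0174), -3.93 for Il6 (0.0358), -1.43 for Lif (0.0288), -0.51 for Nfe2l2 (0.0414) and -0.76 for Cryab (0.0408). Evpl, Il6 and Lif were named for their large DFO differences in siControl cells, which favours a smaller rise in siNCOA4 cells, so the shared direction is no independent support. Nfe2l2 and Cryab were named for this call, after their values were seen. Leaving out single libraries ended the call in 10 of 12 fits for Il6 (adjusted p up to 0.0849), 8 for Lif (0.0723), 11 for Nfe2l2 (0.101), 9 for Cryab (0.0933) and 2 for Evpl (0.0584). Il6 was also called higher with Ncoa4 siRNA before DFO, by 2.22 (adjusted p = 0.0312), a call lost in 5 of 12 such fits (up to 0.103) and with a pseudocount of 1 (0.61, 0.224), no filter (0.0601), the compared groups alone (0.0915) or no trend (0.0508). For members of the set the difference between DFO responses was not tested.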

How the results depend on the processing

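Sprr1a was called higher with DFO in siNCOA4 cells under each alternative, with adjusted p of 3.31e-05 to 0.0165, and 1.27e-05 to 0.00372 with each library left out. Because Sprr1a passed the filter only with DFO libraries counted, these p are not support for a rise. Krt7 was not called with a pseudocount of 1 (log2 difference 0.78) or of 0.01 (adjusted p = 0.0592), and was not testable at 2 FPKM. The log2 difference of Krt80 for Ncoa4 siRNA alone was 0.17, and -0.025 to 0.30 with each library left out, the lowest without siControl replicate 3. The number of members called higher lay between 2 and 4, with Krt16, which is no test, counted each time. Given the filter, that number is not support for a rise. The pseudocount set the size of low genes' differences. Of all genes, with no fold threshold 6365 were called for DFO in siControl cells in place of 2244, 5095 in place of 1362 for DFO in siNCOA4 cells, 1399 in place of 212 for Ncoa4 siRNA alone and 1963 in place of 249 for it under DFO. A pseudocount of 1 gave 112 and 129 for the last 2. Differing DFO responses were called in 250 genes, in 164 without a trend, and in 76 to 288 with each library left out (2166 to 2272, 1207 to 1556, 164 to 220 and 181 to 297 for the 4 comparisons in the order above). Replicate numbers did not pair the libraries: 2 of 18 same-number correlations passed 0.1. A replicate block left 3 members called, 2238, 1351, 193 and 239 genes in the 4 comparisons, and 171 differing responses, and ended the call of Pkp2 (adjusted p = 0.0692). The causes were not tested.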
